A study of Rattus norvegicus with 9 samples.

Results

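Interleukin and interleukin receptor genes were taken as the rows of a rat spleen RNA-seq count table whose symbol is Il followed by a number, with at least 10 counts summed over the 9 libraries. Of 80 such rows among 34408 gene entries, 63 met that minimum: 22 ligands, 37 receptor chains, 3 soluble antagonists or binding proteins (Il1rn, Il18bp and Il22ra2) and the enzyme Il4i1. Wild-type rats formed 3 groups of 3 libraries: control, TAA and TAA+celecoxib. TAA is thioacetamide, a liver toxin that produces cirrhosis, and was injected intraperitoneally every 3 days at 200 mg/kg for 8 weeks and at 100 mg/kg for a further 8 weeks. The TAA+celecoxib rats had the same injections and 20 mg/kg of celecoxib, a cyclooxygenase 2 inhibitor, per day in the last 8 weeks. The labels call the controls only control, name no vehicle and give no strain, sex or age, and they do not say that each library is a separate animal, so p-values measure only the spread between these libraries. The tissue is labelled spleen and the cell type splenocytes. Markers of T cells, B cells, macrophages, endothelium and stroma were all found in every group. Hepatocyte markers were found in every group as well, except Fgb in TAA+celecoxib, and their levels are given below.

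Interleukins are secreted proteins by which leukocytes and stromal cells signal to each other, and each acts through receptor chains on the target cell. Most of these chains pass the signal to JAK kinases and STAT transcription factors, while receptors of the IL-1 family (IL-1, IL-18, IL-33 and IL-36) use the adaptor MyD88 and activate NF-kB. Many receptors share a chain, such as the common gamma chain encoded by Il2rg or gp130 encoded by Il6st, and decoy receptors or binding proteins can hold a ligand away from its receptor. In the spleen, T cells, NK cells, macrophages, dendritic cells, granulocytes and stroma all make or receive these signals.

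Libraries held 14211789 to 19014761 counts, and 1 count equalled 0.0522 to 0.0710 CPM (the count scaled to library size, with TMM correcting for library composition). Of the 63 genes, 55 passed the filter on low counts and were tested. Hepatocyte markers (6 of 6 in the files, 3 tested) summed to 256 to 378 CPM in control and 418 to 1307 CPM in TAA. In TAA+celecoxib they summed to 170 to 370 CPM, so the TAA sums overlapped neither other group. The source of these counts in tissue labelled spleen, and their part in the interleukin levels, was not tested. Control 1 and TAA+celecoxib 1 stood apart from the other libraries on the first principal component over all tested genes (33.5% of the variance), at -55.4 and -52.3, where the others lay between -0.97 and 44.0. Both had the lowest sums of endothelial markers, 203 and 210 CPM, against 522 to 850 CPM elsewhere. They also had the lowest macrophage sums, 2482 and 1964 CPM against 3788 to 7067 CPM, and the highest stroma sums, 3094 and 2292 CPM against 856 to 1460 CPM. Their T cell sums were the highest as well, 1051 and 989 CPM against 617 to 915 CPM. Il7, a stromal survival factor of lymphocytes, was at 22.3 and 18.2 CPM in these 2 libraries and at 7.10 to 10.7 CPM in the other 7. The part of these markers in the levels of Il7, and of Il2ra and Il22ra2 given later, was not tested.

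None of the 55 tested interleukin genes passed the threshold in any of the 3 comparisons by edgeR's quasi-likelihood test (adjusted p under 0.05 over 15954 genes), and 0% of all genes did. Values, unadjusted p-values and overlap between the groups' libraries are therefore given as a description. In 3 of 55 genes (5.45%, against 3.48% of all tested genes) the libraries of TAA overlapped neither those of control nor those of TAA+celecoxib: Il6, which encodes a ligand of gp130 receptors, Il18bp, which encodes the protein that binds and neutralises IL-18, and Il15ra, the chain that presents IL-15 to neighbouring cells. Their promoter windows, the 250 bases before the RefSeq start in build GRCr8, are shown for that reason. They are the minus strand at chr4:5894576-5894825 for Il6, at chr1:165786956-165787205 for Il18bp and at chr17:71741654-71741903 for Il15ra, and capitals mark the motif matches described next.
Il6: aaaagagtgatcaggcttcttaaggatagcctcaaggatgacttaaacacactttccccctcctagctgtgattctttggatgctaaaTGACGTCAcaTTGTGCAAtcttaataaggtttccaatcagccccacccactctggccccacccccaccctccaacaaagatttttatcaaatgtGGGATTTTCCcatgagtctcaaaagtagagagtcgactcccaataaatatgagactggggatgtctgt
Il18bp: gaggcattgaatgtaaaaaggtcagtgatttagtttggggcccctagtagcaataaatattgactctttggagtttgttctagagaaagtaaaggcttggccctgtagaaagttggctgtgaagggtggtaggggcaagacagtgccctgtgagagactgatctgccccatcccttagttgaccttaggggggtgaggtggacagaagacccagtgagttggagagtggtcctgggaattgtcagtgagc
Il15ra: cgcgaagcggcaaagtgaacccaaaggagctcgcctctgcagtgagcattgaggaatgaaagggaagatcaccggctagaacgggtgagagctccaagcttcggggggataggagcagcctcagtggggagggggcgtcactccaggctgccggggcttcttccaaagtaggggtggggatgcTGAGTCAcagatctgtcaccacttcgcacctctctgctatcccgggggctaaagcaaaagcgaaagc

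The windows were searched on both strands for 5 motifs: the kappa B consensus of NF-kB, TGACGTCA (cyclic AMP response element), TTGNNCAA (C/EBP), TGANTCA (AP-1) and TTCNNNGAA (STAT). The Il6 window held the NF-kB consensus 68 to 59 bases before the start, the cyclic AMP letters 162 to 155 bases before it and the C/EBP letters 152 to 145 bases before it. They occurred in 6.33%, 1.59% and 5.25% of 33469 promoter windows of the same length. In the Il15ra window the AP-1 letters, found in 6.34% of all windows, lay 67 to 61 bases before the start. The Il18bp window held none of the 5, and the STAT letters, found in 7.67% of all windows, were in none of these 3 windows. RefSeq windows matched 51 of the 63 genes by symbol, and among their 58 windows 17.2% held the NF-kB consensus, 3.45% the cyclic AMP letters, 12.1% the C/EBP letters, 8.62% the AP-1 letters and 6.9% the STAT letters. A match describes letters and not a bound site, and the motifs were chosen knowing that Il6 would be shown.

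Levels between genes are compared on the deposited FPKM scale, which divides by gene length. In control spleen the median of the mean FPKM was 3.91 over the 37 receptor chains and 1.5 over the 22 ligands. It was 8.71 over all tested genes, an unlike set, since the member medians include 8 genes with too few counts to test. Among tested members, the middle 2 of 18 ligands were Il24 (5.93 FPKM) and Il6 (4.73 FPKM). The middle of 33 tested receptor chains was Il2ra (4.10 FPKM), so the order of the 2 classes depended on the untested genes. Among ligands, Il16, a T cell chemoattractant, was at 70.6 ± 0.650 FPKM (SD, n = 3), followed by Il1b, the inflammasome-processed pyrogen, at 64.0 ± 17.3, Il33, an alarmin of stromal nuclei, at 41.1 ± 12.5, Il18 at 35.0 ± 7.55 and Il15, a survival factor of NK and memory T cells, at 21.7 ± 8.49. Each of these ligands lay within the combined SDs of its neighbour in the order. Together with Il34 and Il7, 7 ligands reached 10 FPKM, and 15 of the 22 reached 1 FPKM.

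Among receptor chains, Il17ra, which serves several IL-17 cytokines, led with 91.6 ± 2.11 FPKM, and Il2rg, the common gamma chain, followed with 80.0 ± 8.07. Il21r was at 55.1 ± 13.5, Il2rb at 51.0 ± 4.49, Il4r at 46.2 ± 2.14, Il7r at 41.3 ± 11.3, Il6st at 39.6 ± 11.3 and Il10rb at 38.5 ± 5.42. From Il21r down, neighbours in the order lay within their combined SDs. Il6r, the IL-6 binding chain, was at 35.0 ± 2.31 FPKM, and Il10ra, the IL-10 binding chain, at 35.5 ± 11.9 FPKM. In all, 13 receptor chains reached 10 FPKM and 28 of 37 reached 1 FPKM.

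**Figure D1:**
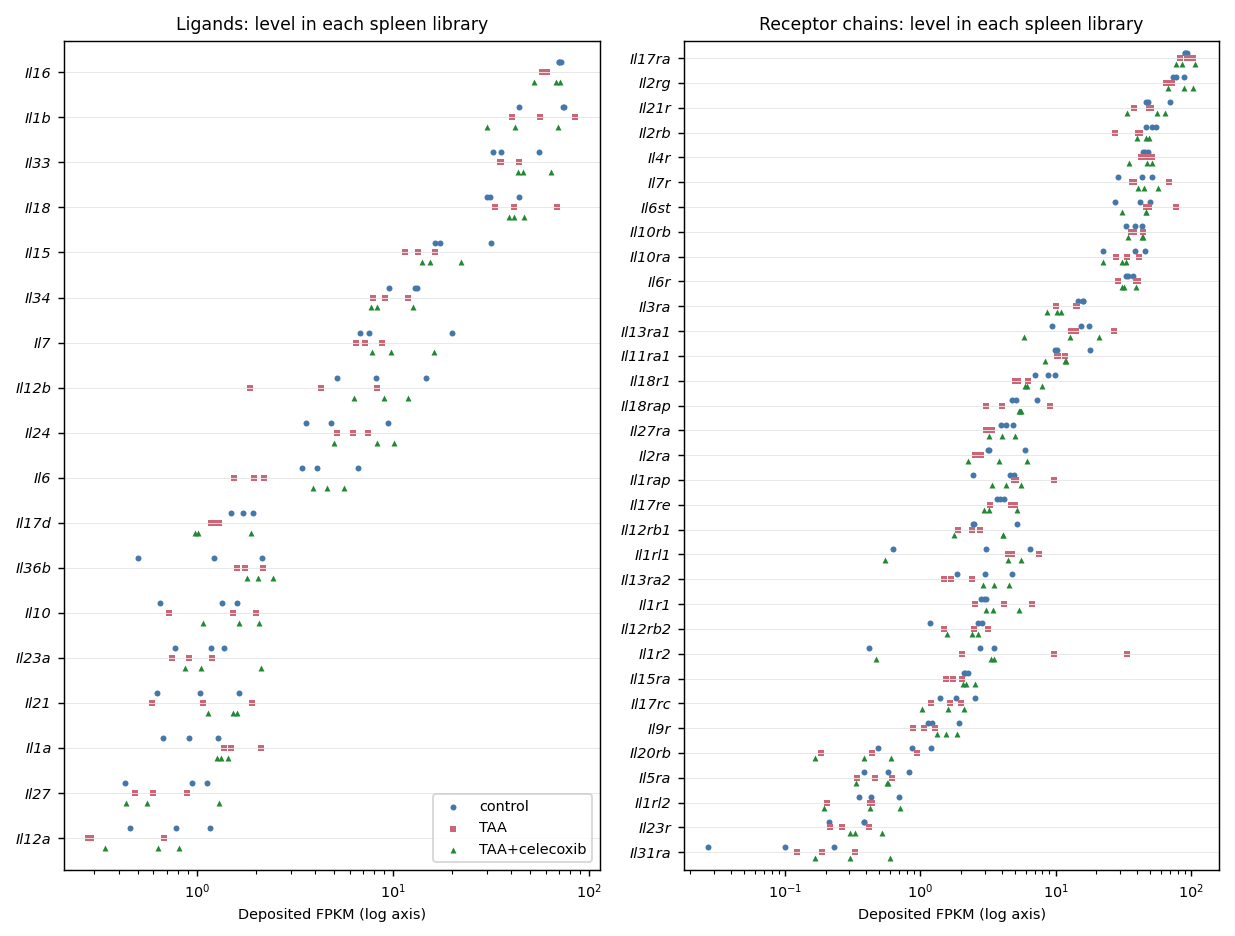
Deposited FPKM (log axis) of the 18 tested ligands and 33 tested receptor chains in each library, ordered by the control mean, with circles for control, squares for TAA and triangles for TAA+celecoxib. Il16 and Il17ra lead the 2 classes, and the TAA libraries of Il1r2 are spread widely.

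Several interleukin genes, classical T helper cytokines among them, were barely seen. Il17a, Il17f, Il5, Il9, Il36a, Il36g and the receptor Il1rapl2 had 0 counts in all 9 libraries, where 3 counts, the limit that a count of 0 allows, equal 0.157 to 0.213 CPM (counting error only). Il4 had 14 counts over the 9 libraries, just inside the minimum, and Il17c, with 9, fell just outside it. Il2, the T cell growth factor, had 50 counts, spread as 11, 7 and 1 in control, 1, 4 and 4 in TAA and 9, 9 and 4 in TAA+celecoxib. It belongs to 8 members that the main test left out for low counts, with Il4, Il11, Il17b, Il17rb, Il17rd, Il22ra1 and Il1rapl1. A fit without the filter called no gene in any comparison, and counts this low leave little room to detect a difference.

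The comparison of TAA with control asks what the liver toxin changed in the spleen. Il6, Il2rb and Il18r1 were lower and Il18bp, Il1a and Il1r2 higher in the TAA libraries at an unadjusted p under 0.05, but no member passed the adjusted threshold by edgeR (smallest adjusted p 0.788). Of the 55 tested members, 7 had an unadjusted p under 0.05, where 6% of all tested genes had one. Lower in TAA were 4 of them, beside 3.15% of all genes, and higher were 3, beside 2.85%. Control and TAA libraries were fully separated in 13 members, 10 lower and 3 higher in TAA, that is 23.6% of the members against 14.8% of all tested genes. Lower non-overlapping genes made up 7.89% and higher ones 6.94% of all tested genes. The median log2 fold change was -0.24 over 18 ligands and -0.12 over 33 receptor chains, beside 0.0017 over all tested genes. Without control 1 these medians were -0.14 and -0.02. DESeq2 called 1 member, Il18bp, and 0.387% of genes, while limma-voom called 0 genes.

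Il6 was at 4.38, 7.01 and 3.59 CPM in the control libraries and at 1.63, 2.05 and 2.30 CPM in the TAA libraries. Every TAA library lay below every control library. The log2 fold change was -1.32 ± 0.32 (SE; edgeR unadjusted p = 0.00279, adjusted p = 0.788). Without control 1 and TAA+celecoxib 1 it was -1.41. These levels rest on 63 to 126 counts in control and 23 to 44 in TAA.

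Il18bp was at 28.4, 26.3 and 29.2 CPM in control and at 40.9, 38.3 and 42.3 CPM in TAA. Its libraries were tight within both groups and did not overlap, with a log2 fold change of 0.53 ± 0.12 (edgeR unadjusted p = 0.00185, adjusted p = 0.788). DESeq2 put it just past the threshold, at an adjusted p of 0.0496. The ligand that it binds, Il18, was at 35.6 ± 7.35 CPM in control and 48.2 ± 18.6 CPM in TAA, groups that overlapped. Il18r1, the ligand-binding chain of the IL-18 receptor, was at 40.4, 28.3 and 34.7 CPM in control and at 20.0, 21.2 and 24.7 CPM in TAA. These libraries did not overlap either (log2 fold change -0.65 ± 0.18, edgeR unadjusted p = 0.00663, adjusted p = 0.788). Its partner chain Il18rap overlapped, at 16.6 to 48.5 CPM in TAA and 25.2 to 39.5 CPM in control, with TAA 3 the highest of all 9 libraries. Macrophage markers, 10 of 10 in the files, summed to 5070 to 7067 CPM in TAA and 2482 to 4541 CPM in control, with 5 of 10 not overlapping and higher and none at 0; their part in the Il18bp result was not tested.

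All 3 chains of the IL-2 receptor had lower levels in TAA, with no overlap. Il2rb, the signalling chain shared with IL-15, was at 129, 140 and 150 CPM in control and at 75.3, 111 and 114 CPM in TAA (log2 fold change -0.48 ± 0.17, edgeR unadjusted p = 0.0208, adjusted p = 0.788). Without TAA 1, its lowest library, the fold change was -0.31. Il2rg was at 268, 230 and 216 CPM against 195, 211 and 215 CPM, so its groups all but met, and its log2 fold change of -0.20 ± 0.17 became -0.11 without control 1. Il2ra, the inducible high-affinity chain and a marker of regulatory T cells, was at 20.0, 10.6 and 10.6 CPM against 8.45, 9.04 and 9.30 CPM. Its log2 fold change of -0.62 became -0.25 without control 1, the highest of the controls. Il15ra, which lies 17.3 kb from Il2ra on chromosome 17 in the files, was at 4.62, 4.45 and 4.72 CPM in control and at 3.34, 3.70 and 4.28 CPM in TAA (log2 fold change -0.28 ± 0.22). The ligand Il15 was at 10.7 ± 4.33 CPM and 6.77 ± 1.19 CPM, which overlapped, since TAA 3 lay above control 3.

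T cell markers were lower with these chains. Of the 10 listed genes 9 are in the files, none was at 0, and they summed to 842 to 1051 CPM in control and 617 to 750 CPM in TAA, with 8 of 9 not overlapping and lower. NK markers (6 of 6 in the files, none at 0) summed to 298, 322 and 296 CPM in control and 222, 260 and 294 CPM in TAA, with 1 of 6 not overlapping and lower, and TAA 1 was lowest for both Il2rb and this sum. The part of either list in the levels of these chains was not tested. CPM in bulk RNA is a share of all counts. Fewer T cells, less RNA per T cell and more RNA from other cells therefore cannot be told apart. Chains of other lymphocyte receptors varied: Il27ra, the IL-27 binding chain, was at 24.0, 20.9 and 19.1 CPM against 15.8, 16.4 and 14.8 CPM, with no overlap (edgeR unadjusted p = 0.0421, adjusted p = 0.788). By contrast Il7r, the IL-7 receptor of naive and memory T cells, overlapped, at 40.8, 60.3 and 70.4 CPM in control and 50.7, 53.1 and 95.0 CPM in TAA. Il4r, Il6r, Il10rb and Il17ra had group means closer than the SD of either group, at 166, 162, 70.1 and 356 CPM in control and 169, 168, 71.4 and 361 CPM in TAA.

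**Figure D2:**
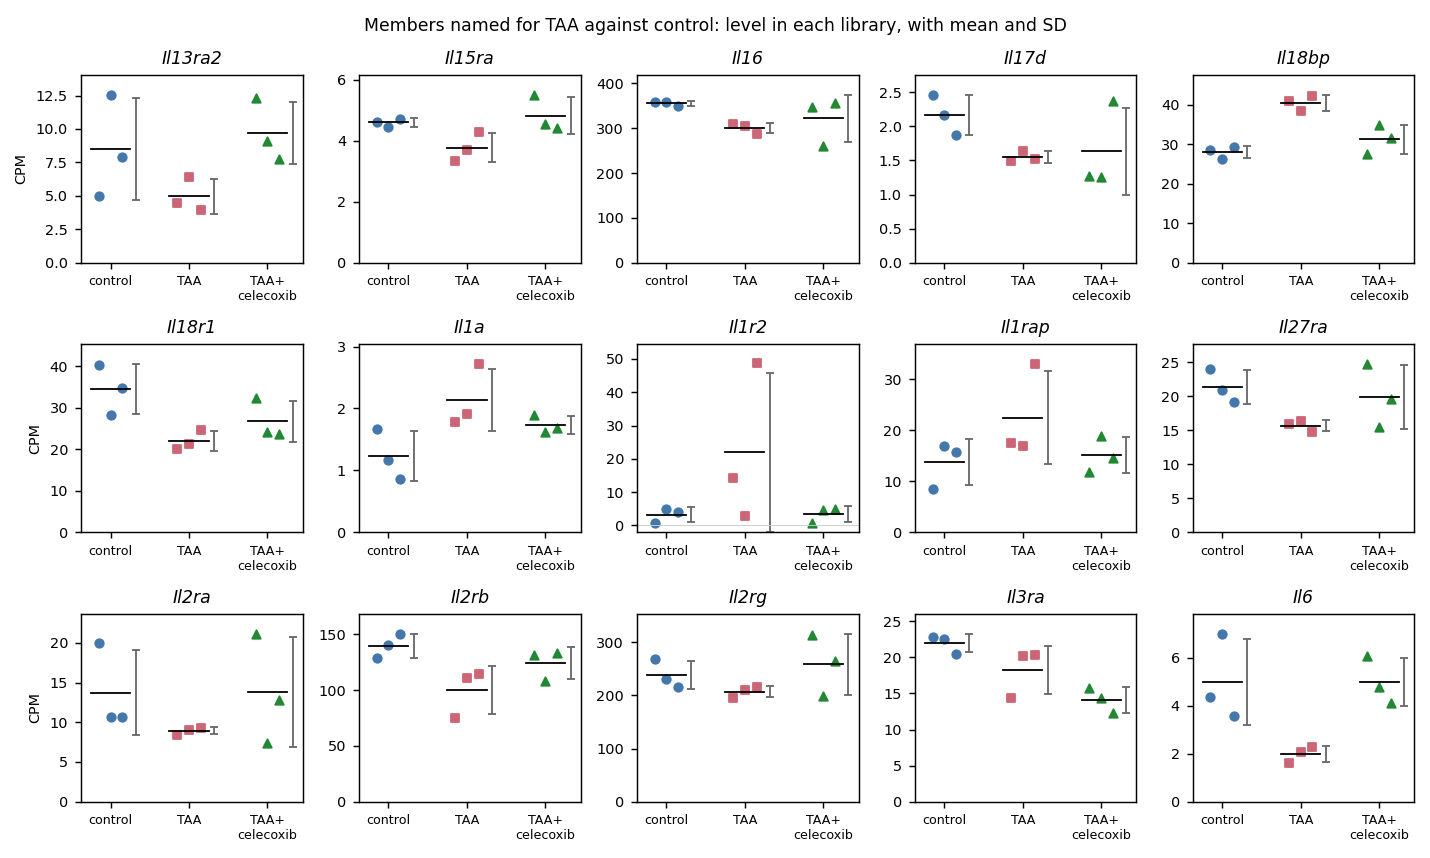
CPM in each library for the 15 members named in the comparison of TAA with control, with the mean as a bar and the SD as a bracket (n = 3). Il6 and Il18bp show TAA apart from both other groups, while the 3 TAA libraries of Il1r2 range from 2.95 to 48.6 CPM.

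Among IL-1 family genes, Il1r2, the decoy receptor of IL-1 carried by neutrophils, was at 0.616, 5.06 and 3.98 CPM in control and at 14.3, 2.95 and 48.6 CPM in TAA. TAA 2 lay within the control range and TAA 3 far above every other library. The log2 fold change of 2.76 ± 1.09 (edgeR unadjusted p = 0.0324, adjusted p = 0.788) became 1.41 without TAA 3. Neutrophil markers, 8 of 8 in the files and none at 0, summed to 85.1, 344 and 283 CPM in control and to 530, 432 and 2186 CPM in TAA, and 6 of 7 tested did not overlap. TAA 3 was highest for both; the part of the markers in the Il1r2 result was not tested.

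Il1rap, the accessory chain that IL-1, IL-33 and IL-36 receptors share, was at 8.51, 16.8 and 15.7 CPM in control and 17.5, 16.99 and 33.0 CPM in TAA. TAA 1 and TAA 2 lay just above the highest control library. Its log2 fold change of 0.72 ± 0.34 became 0.33 without TAA 3 and 0.47 without control 1. Il1a was low, at 1.66, 1.17 and 0.854 CPM against 1.78, 1.92 and 2.72 CPM, with no overlap (edgeR unadjusted p = 0.0439, adjusted p = 0.788) and on 15 to 52 counts per library in these groups. Its neighbour Il1b, 40.2 kb away on chromosome 3, was at 62.8, 104 and 104 CPM in control and 79.4, 57.0 and 118 CPM in TAA, groups that overlapped. The antagonist Il1rn (35.6 ± 4.97 and 39.1 ± 8.47 CPM) overlapped too, as did Il33 (102 ± 32.2 and 94.0 ± 12.1 CPM).

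The 6 IL-1 family receptor genes Il1r2, Il1r1, Il1rl2, Il1rl1, Il18r1 and Il18rap lie in a row on chromosome 9 of the files, from 46840992 (start of Il1r2) to 47258503 (end of Il18rap), in that order. They did not share a direction: in TAA the first 2 and Il1rl1 had higher means, whereas Il1rl2, Il18r1 and Il18rap had lower ones. Il1rl1 and Il18r1 are only 3.27 kb apart. Il1rl1, the IL-33 receptor of mast cells, type 2 lymphoid cells and regulatory T cells, was at 2.28, 10.9 and 23.0 CPM in control, 16.1, 17.1 and 26.6 CPM in TAA. The TAA+celecoxib libraries had 2.03, 19.7 and 16.0 CPM. Control 1 and TAA+celecoxib 1 had the lowest Il1rl1 and also the lowest endothelial sums, and mast cell and basophil markers (7 of 8 in the files, none at 0) summed to 49.5 and 52.8 CPM there against 60.7 to 78.4 CPM in the other 7 libraries. The part of these markers in the Il1rl1 levels was not tested.

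**Figure D3:**
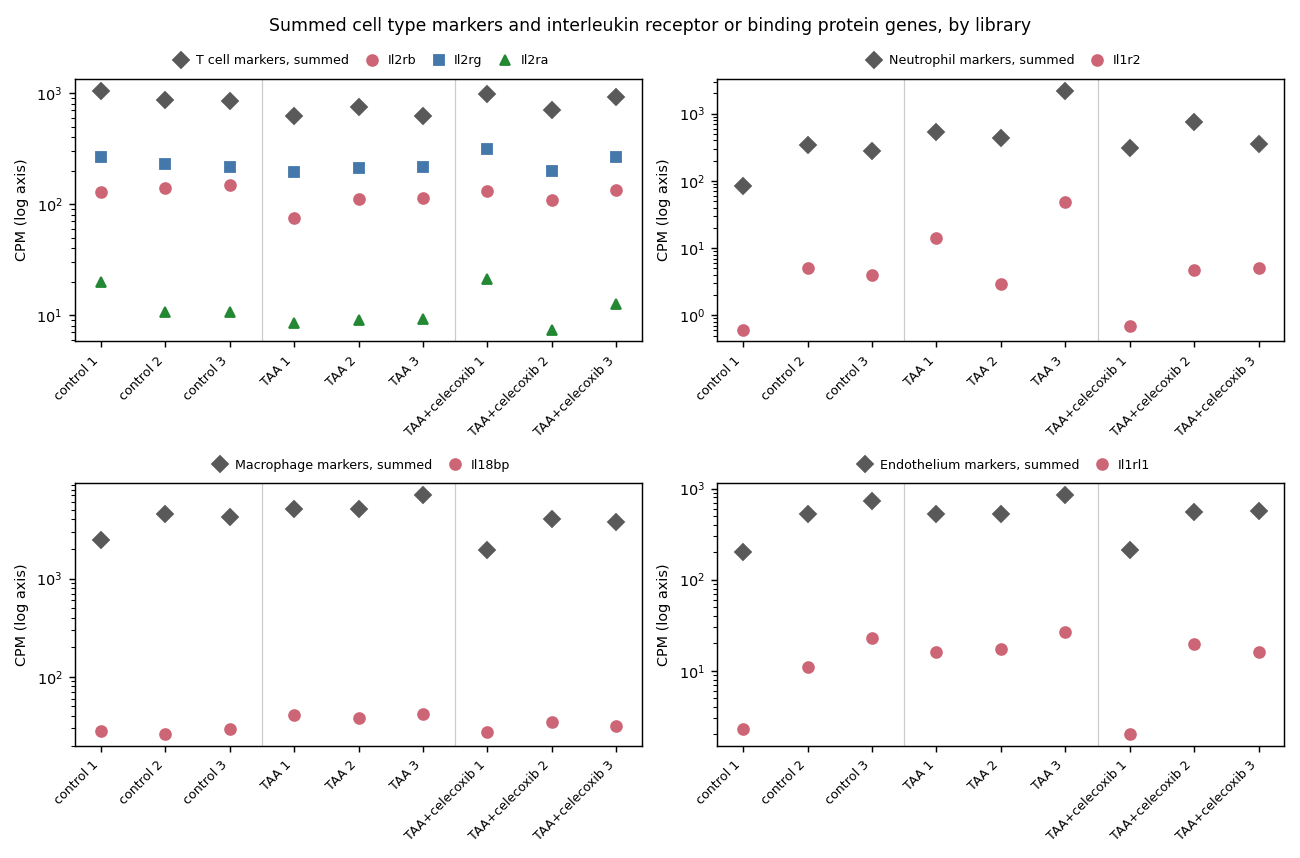
CPM (log axis) by library of interleukin receptor or binding protein genes, in colour, and of summed cell type markers, as grey diamonds; vertical lines part the groups. Il1r2 and neutrophil markers peak in TAA 3, and Il1rl1 and endothelial markers are lowest in control 1 and TAA+celecoxib 1.

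Further named members had smaller or less even differences. Il16 was at 358, 358 and 350 CPM in control and 309, 305 and 288 CPM in TAA, a narrow gap with no overlap (log2 fold change -0.24 ± 0.13). Il17d, an IL-17 family ligand, was at 2.17 ± 0.294 and 1.55 ± 0.0820 CPM, also without overlap. Il3ra, the IL-3 binding chain, was at 22.9, 22.6 and 20.5 CPM against 14.4, 20.1 and 20.3 CPM, and its log2 fold change of -0.27 became -0.12 without TAA 1. Il13ra2, the decoy receptor of IL-13, overlapped, at 4.99, 12.6 and 7.91 CPM against 4.48, 6.44 and 3.97 CPM. Its log2 fold change of -0.78 was -0.38 without control 2.

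Il12b and Il12a, which encode the chains of IL-12, were at 9.56 ± 5.05 and 1.18 ± 0.531 CPM in control and 4.91 ± 3.32 and 0.610 ± 0.331 CPM in TAA, with overlap in both. Il10, an anti-inflammatory ligand, was at 0.822 ± 0.341 and 0.971 ± 0.441 CPM. Neither its level nor that of Il12a exceeded 28 counts in any library, so small differences were not detectable.

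TAA+celecoxib against TAA sets rats with the drug beside rats with the toxin alone. It uses the same 3 TAA libraries as the first comparison, so the values of both are given side by side and are not independent. Il6, Il13ra2, Il9r and Il15ra had higher levels and Il18bp and Il6st lower levels in TAA+celecoxib with no overlap, and none passed the adjusted threshold by edgeR (smallest adjusted p among members 0.890). These 6 of 55 members are 10.9%, and 10.9% of all tested genes did not overlap. Higher non-overlapping genes made up 5.87% and lower ones 5.03% of all tested genes. An unadjusted p under 0.05 was found in 4 members and in 5.09% of all genes. It was found in 2 members on the higher side, beside 2.63% of all genes, and in 2 on the lower side, beside 2.46%. The median log2 fold change was 0.23 over ligands and -0.0081 over receptor chains, beside 0.0071 over all tested genes. The receptor median was 0.15 without TAA 3 and -0.09 without TAA 1. DESeq2 called 0 members and 0.157% of genes, and limma-voom 0 genes.

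Il6 was at 6.08, 4.77 and 4.12 CPM in the TAA+celecoxib libraries, each above the highest TAA library (2.30 CPM). The log2 fold change was 1.31 ± 0.32 (edgeR unadjusted p = 0.00284, adjusted p = 0.890), and 4.99 ± 0.998 CPM in TAA+celecoxib lay beside 4.99 ± 1.79 CPM in control. Il18bp was at 27.5, 34.8 and 31.5 CPM, under the lowest TAA library (38.3 CPM), with a log2 fold change of -0.37 ± 0.12 (edgeR unadjusted p = 0.0135, adjusted p = 0.890). Macrophage markers summed to 1964 to 4070 CPM in TAA+celecoxib, below the TAA range, and 5 of 10 did not overlap; their part in the Il18bp result was not tested. Il18r1 was at 32.5, 24.1 and 23.6 CPM and overlapped with TAA.

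Il13ra2 was at 12.3, 9.12 and 7.72 CPM in TAA+celecoxib, all above TAA (log2 fold change 0.97 ± 0.36, edgeR unadjusted p = 0.0260, adjusted p = 0.890). Il9r, the IL-9 binding chain, was at 9.81, 8.21 and 11.6 CPM against 5.47, 6.58 and 7.94 CPM in TAA, so the nearest libraries almost met. Il15ra was at 5.51, 4.56 and 4.40 CPM, also just above the highest TAA library. Il6st, the gp130 chain through which IL-6 signals, was at 99.6, 145 and 146 CPM in TAA+celecoxib and 154, 147 and 243 CPM in TAA. The nearest libraries of the groups almost met, and the log2 fold change of -0.48 ± 0.27 became -0.21 without TAA 3 and -0.32 without TAA+celecoxib 1.

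Il1r2 was at 0.696, 4.77 and 5.07 CPM in TAA+celecoxib, overlapping with TAA through TAA 2. The log2 fold change of -2.64 ± 1.09 (edgeR unadjusted p = 0.0383, adjusted p = 0.890) became -1.29 without TAA 3, and the neutrophil sums in TAA+celecoxib were 310, 748 and 358 CPM. The IL-2 receptor chains overlapped here: Il2rb was at 132, 108 and 133 CPM, Il2rg at 313, 199 and 265 CPM and Il2ra at 21.1, 7.43 and 12.7 CPM in TAA+celecoxib. TAA+celecoxib 2 was the lowest of its group for all 3 and also had the lowest T cell sum, 702 CPM against 989 and 915 CPM. For Il2rg and Il27ra the log2 fold changes of 0.32 and 0.34 became 0.16 and 0.16 without TAA+celecoxib 1. Il3ra was at 15.8, 14.3 and 12.2 CPM against 14.4, 20.1 and 20.3 CPM (log2 fold change -0.37 ± 0.18).

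**Figure D4:**
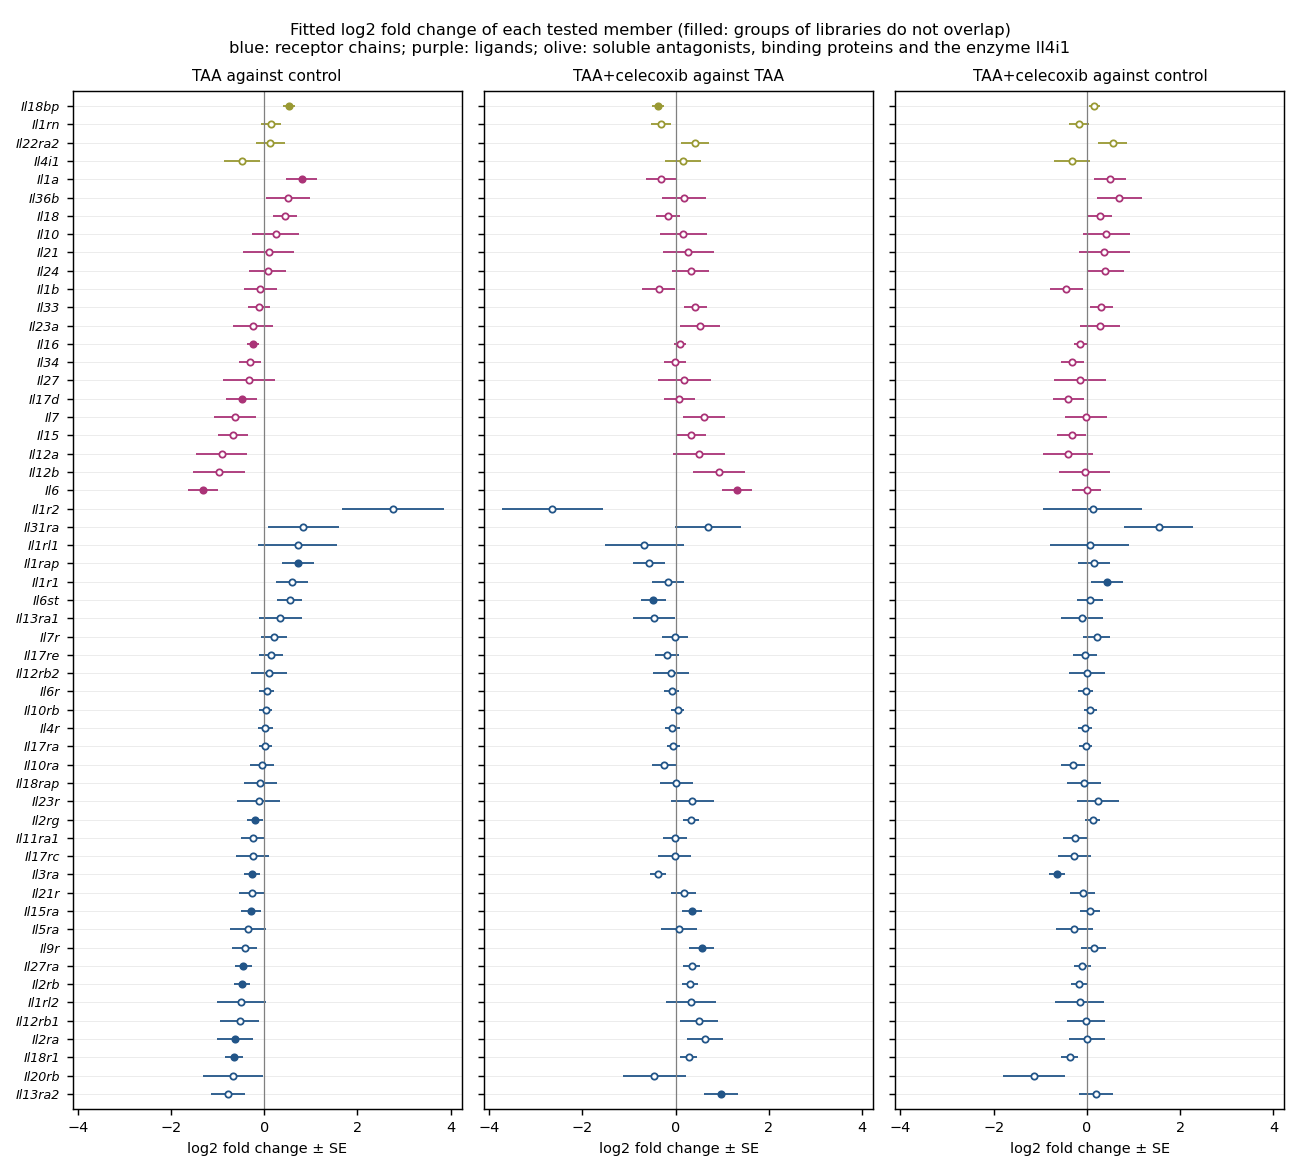
Fitted log2 fold change with SE of the 55 tested members in each comparison, with filled points where the libraries of the 2 groups do not overlap. Il1r2 has the widest SE in the first 2 panels, and the third panel has 2 filled points, Il1r1 and Il3ra.

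In TAA+celecoxib against control, which asks whether treated spleens differ from untreated ones, fold changes were mostly small, for interleukin genes as for all genes. Of the 55 members, 50 had a log2 fold change smaller than 0.5 in size, which is 90.9% of them against 84.8% of all tested genes, and 1 had an unadjusted p under 0.05 by edgeR, where 5.03% of all genes had one. With the replicate number as a block 3.64% of members and 6.68% of all genes had one, and without control 1 and TAA+celecoxib 1 these shares were 7.14% and 7.02%. The 1 member was on the lower side, as were 2.07% of all genes, and 2.96% of all genes were on the higher side. No member passed the adjusted threshold (smallest adjusted p 0.911), and DESeq2 and limma-voom called 0 members. Libraries did not overlap in 2 of 55 members, 3.64%, against 9.68% of all tested genes. Of these members 1 was higher (5.27% of all genes) and 1 lower (4.42%). The medians were -0.010 over ligands and -0.023 over receptor chains, beside 0.0012 over all tested genes. The ligand median was 0.26 without control 1 and -0.11 without TAA+celecoxib 1, and the receptor median was -0.07 without TAA+celecoxib 1.

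Il3ra was the lower of those 2, at 15.8, 14.3 and 12.2 CPM in TAA+celecoxib against 22.9, 22.6 and 20.5 CPM in control (log2 fold change -0.64 ± 0.18, edgeR unadjusted p = 0.00549, adjusted p = 0.911). The gap between the groups was wider than the range within either group. Il1r1, the signalling IL-1 receptor, named here after its values were seen, was the higher one, at 12.5, 13.5 and 21.4 CPM against 11.3, 11.7 and 12.2 CPM. Il22ra2, a soluble receptor that binds IL-22, was at 157, 108 and 92.7 CPM against 117, 70.5 and 57.3 CPM, with overlap. It was higher in TAA+celecoxib for each of the 3 replicate numbers. With the replicate number as a block its log2 fold change was 0.57 (edgeR unadjusted p = 0.0397, adjusted p = 0.698). No label pairs these libraries. The pairing was read from these same data, in which control 1 and TAA+celecoxib 1 were both highest of their groups for Il22ra2, so this p-value is not independent of it. Without the block the log2 fold change of Il22ra2, 0.55, was 0.30 without TAA+celecoxib 1, 0.35 without control 3 and 0.90 without control 1. Il18r1 overlapped as well (log2 fold change -0.37, and -0.24 without control 1).

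Il31ra, Il20rb and Il36b, also among the 8 smallest p-values here, had at most 27 counts in any library of these 2 groups. Il31ra was at 0.0616, 0.222 and 0.512 CPM in control and 0.380, 1.33 and 0.677 CPM in TAA+celecoxib, and its log2 fold change of 1.54 became 0.97 without TAA+celecoxib 2 and 2.39 without control 3. The control library with 0.0616 CPM held 1 count. Il20rb was at 0.952 ± 0.390 and 0.429 ± 0.243 CPM, and Il36b, an epithelial IL-1 family ligand, at 0.932 ± 0.584 and 1.52 ± 0.228 CPM. The log2 fold change of Il36b, 0.70, was 0.33 without control 1 and 1.25 without control 3. Il1a (log2 fold change 0.50 ± 0.34) and Il18bp (0.16 ± 0.12), the remaining members of the 8, overlapped with control. That of Il1a was 0.78 without control 1 and 0.29 without control 3, and that of Il18bp was 0.08 without TAA+celecoxib 2 and 0.24 without TAA+celecoxib 1.

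Genes of interleukin signalling whose names do not begin with Il were taken from a list of 46, of which 43 were tested. None passed the adjusted threshold by edgeR in any comparison. Unadjusted p-values under 0.05 were found for 4, 5 and 2 of the 43 in TAA against control, TAA+celecoxib against TAA and TAA+celecoxib against control. These are 9.3%, 11.6% and 4.65% of the list, beside 6%, 5.09% and 5.03% of all tested genes. In the first comparison 8 were lower and 2 higher without overlap, 23.3% of the list against 14.8% of all tested genes, while the median log2 fold change was 0.0089. In the second, 11.6% of the list did not overlap against 10.9% of all genes, and in the third 14% against 9.68%.

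Cish, a STAT5-induced inhibitor of IL-2 signalling, was at 24.9 ± 4.33 CPM in control and 13.4 ± 2.16 CPM in TAA, with no overlap. It spread from 11.01 to 29.2 CPM in TAA+celecoxib. Osmr, the oncostatin M receptor that pairs with gp130, was at 8.57, 12.3 and 13.1 CPM in control and 16.4, 16.0 and 35.7 CPM in TAA, with TAA 3 highest, and at 10.1, 13.7 and 15.6 CPM in TAA+celecoxib. Csf2rb, the signalling chain shared by IL-3, IL-5 and GM-CSF receptors, was at 143, 154 and 189 CPM, then 178, 202 and 368 CPM, then 136, 167 and 179 CPM in the same order of groups.

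Socs3, the feedback inhibitor that acts on gp130, was at 19.3, 14.8 and 16.5 CPM in TAA+celecoxib, under the lowest library of TAA (24.4 CPM) and of control (21.6 CPM). The log2 fold change was -0.71 ± 0.17 against TAA (edgeR unadjusted p = 0.00216, adjusted p = 0.890) and -0.43 ± 0.16 against control (edgeR unadjusted p = 0.0278, adjusted p = 0.911). Pycard, the inflammasome adaptor used for IL-1 beta processing, was at 88.7, 69.1 and 77.9 CPM against 134, 126 and 95.9 CPM in control. Csf2ra, the GM-CSF binding chain, was at 52.9, 59.8 and 59.5 CPM against 67.5, 68.4 and 70.1 CPM in control.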

How the data were processed

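RNA-seq of 9 rat spleen libraries was analysed in 3 groups of 3. The authors deposited raw counts per gene and FPKM values; each deposited FPKM equals the count over gene length and over a constant of the library. HISAT2 2.0.5 and the build mRatBN7.2 are named in the submitters' processing notes. No source used here names the counting tool, the annotation or whether strand was used, so overlapping, antisense or near-identical genes could share reads (Il17re and Il17rc lie 0.764 kb apart). The files place Il7r on an unplaced scaffold and the build of their coordinates was not resolved; RefSeq windows are in GRCr8 and were matched by symbol only.

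Counts were tested with edgeR 4.0.16 in R 4.3.3 (quasi-likelihood, all 9 libraries, TMM, filterByExpr with a minimum count of 10 and total of 15; 15954 genes tested), 2-sided, with Benjamini-Hochberg adjustment over all genes and a threshold of 0.05. SE is the log2 fold change over the square root of F. An exact permutation test of 3 against 3 libraries cannot go below p = 0.1. The script was tested on simulated data. Alternatives used DESeq2 1.42.0, limma-voom (limma 3.58.1), other scalings and filters, and left-out libraries. In TAA+celecoxib against control, same-numbered libraries deviated together (correlations 0.53, 0.20 and 0.37), so blocked values are given there. This pairing was read from the data and not the labels, and it is not established.

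Members and lists were chosen with earlier results of these data known. Named were, in each comparison, the 8 members with the smallest p and those past the threshold, members without overlap in either TAA comparison, the 5 ligands and 8 receptors with the highest control FPKM, a fixed set of classical members, and the 3 pathway genes with the smallest p. One pathway gene that this rule names is not reported here.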

Additional observations from a re-analysis of the deposited data

How the results depend on the processing

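The named members with a fold change kept their direction under each alternative run (559 values, 0 reversed). They were named from these same data for a small p or for groups without overlap. Reversals were therefore unlikely from the start, and the count does not measure stability. The class medians, taken over all tested members of a class, varied between runs. In TAA against control the ligand median ran from -0.24 to -0.14 and the receptor median from -0.26 to -0.02 (without control 1). In TAA+celecoxib against TAA the receptor median, -0.0081, ran from -0.09 without TAA 1 to 0.15 without TAA 3 and changed sign in 6 of 17 alternatives. In TAA+celecoxib against control the ligand median ran from -0.11 without TAA+celecoxib 1 to 0.26 without control 1 and changed sign in 7 of 17. Alternatives that altered a count of called genes over all genes were DESeq2 (58 genes in TAA against control, 25 in TAA+celecoxib against TAA and 27 in TAA+celecoxib against control, against 0 by edgeR in each) and a fit of only the groups compared (1 gene in TAA+celecoxib against control). Leaving out single libraries gave 0 to 1, 0 to 3 and 0 to 2 genes in the same order of comparisons, with 1 gene without TAA+celecoxib 2, and 3 and 2 genes without TAA 1, and 0 interleukin members each time. Among interleukin members, DESeq2 called 1 in TAA against control; the cause was not tested. Relative log expression scaling, limma-voom, no filter, a filter of 1 CPM in 3 libraries, and leaving out control 1 with TAA+celecoxib 1 (chosen after seeing the data) each gave 0 called genes in the 3 comparisons. With the replicate number as a block, 0 genes were called in each comparison, so the block changed no call. In the comparisons that involve TAA, correlations of same-numbered libraries ran from -0.26 to 0.28. That range holds the 0.20 of control 2 with TAA+celecoxib 2, so pairing by number is not established in any comparison. Minimums of 5 and 20 counts gave 65 and 61 members in place of 63. Depth limits the members under about 30 counts per library, where 1 count is a sizeable share of the level.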
